A study of Mus musculus with 30 samples.

Results

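Epn3, Gpld1, Htr5a, Ceacam1 and Enox1 are 5 genes of the 55421 in the count table of mouse embryonic stem cells, and all 5 were among the 19868 genes with enough reads to be tested. They were chosen because their messenger RNA changed strongly when regulators of cohesin were removed and because their usual place of action is a differentiated tissue. Epn3 was chosen by its change in PDS5AB-AID, Gpld1 by that in WAPL-AID, Htr5a and Enox1 by those in WAPL-AID_NIPBL-FKBP, and Ceacam1 by those in WAPL-AID and in PDS5AB-AID_NIPBL-FKBP. Those 6 changes are therefore given as values without a test. The changes of Gpld1, Htr5a and Enox1 in Tir1-control had also been seen when the genes were picked and are treated the same way, as are comparisons with the untreated Tir1-control libraries of these 3 genes. This left 16 of the 25 combinations of gene and line for testing. They share auxin or degrons with the changes that chose the genes, so their p-values are no independent support for a response.

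The libraries came from E14 cells, a male mouse embryonic stem cell line, grown on gelatin in serum with LIF and inhibitors of MEK and GSK3. All 5 lines carried Tir1, the plant F-box protein that marks a protein fused to an auxin-inducible degron (AID) for destruction once auxin is present. Tir1-control carried nothing else. PDS5AB-AID carried AID on both PDS5A and PDS5B, and WAPL-AID carried it on WAPL. PDS5AB-AID_NIPBL-FKBP and WAPL-AID_NIPBL-FKBP added an FKBP degron on NIPBL, which is removed by dTAG-13, and a Halo tag on RAD21. The first 3 lines were left untreated or given 500 µM auxin for 24 h, and the last 2 were left untreated or given 500 µM auxin together with 500 nM dTAG-13 for 24 h. Each of the 10 groups had 3 libraries. Each genotype was a single named line, so that a genotype and the history of its line cannot be told apart, and nothing in the labels says that replicates were separate cultures, so that p-values measure the spread between these samples. Degrons act on protein, so the messenger RNA of the tagged genes does not report on their removal.

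Cohesin is a ring that holds DNA loops. NIPBL helps it to load and to extrude loops, WAPL releases it from DNA, and PDS5A and PDS5B bind the ring and take part in its release and in stopping loops. Removal of WAPL or of the PDS5 proteins lengthens loops and, in embryonic stem cells, is known to disturb genes that depend on distant enhancers. Of the 5 genes, Epn3 encodes an epsin, an adaptor of clathrin-coated vesicles found mainly in epithelia. Gpld1 encodes the phospholipase that cuts the glycosylphosphatidylinositol (GPI) anchor of membrane proteins, and it is secreted into serum largely by liver. Htr5a encodes a serotonin receptor of the brain that couples to inhibitory G proteins. Ceacam1 encodes an adhesion molecule of the immunoglobulin family on epithelia, leukocytes and hepatocytes. Enox1 encodes an oxidase and disulfide-thiol exchanger of the outer cell surface.

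By the table's coordinates (GRCm38), Epn3 (ENSMUSG00000010080) lay on the minus strand of chr11:94489599-94499974, and Gpld1 (ENSMUSG00000021340) on the plus strand of chr13:24943152-24992501. Htr5a (ENSMUSG00000039106) lay on the plus strand of chr5:27842149-27855088, and Ceacam1 (ENSMUSG00000074272) on the minus strand of chr7:25461707-25477603. Enox1 (ENSMUSG00000022012) lay on the plus strand of chr14:77156763-77721760 and spanned 564998 bases, against 10376 bases for Epn3. RefSeq start regions (GRCm38.p6, 250 bases before to 50 after the annotated start) were matched for 4 of the 5 genes. Auxin was present in all treated groups, and Cyp1a1, the best known target of the aryl hydrocarbon receptor, rose in all 5 lines. Its mean went from 0.436 to 66.6 CPM (counts scaled to the size of the library) in Tir1-control (log2 change 7.24) and rose by log2 3.71 in PDS5AB-AID, 4.53 in WAPL-AID, 4.72 in PDS5AB-AID_NIPBL-FKBP and 4.89 in WAPL-AID_NIPBL-FKBP (edgeR's quasi-likelihood test, adjusted p from 9.22e-22 to 2.72e-14). The start regions of the 3 genes that also went far up or down in Tir1-control are shown here. A part of the aryl hydrocarbon receptor in their changes was not tested. Capitals mark GCGTG, the core of the site that this receptor binds, on either strand, so that CACGC in capitals is GCGTG on the other strand. The regions are chr13:24942902-24943201 for Gpld1, chr5:27841697-27841996 for Htr5a and chr14:77156513-77156812 for Enox1, all on the plus strand and written 5′ to 3′.
Gpld1: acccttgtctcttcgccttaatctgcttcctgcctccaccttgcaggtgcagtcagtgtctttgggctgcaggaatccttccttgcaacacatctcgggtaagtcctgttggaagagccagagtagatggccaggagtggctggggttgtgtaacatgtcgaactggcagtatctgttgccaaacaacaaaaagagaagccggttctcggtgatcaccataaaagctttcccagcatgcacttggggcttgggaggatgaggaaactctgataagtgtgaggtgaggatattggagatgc
Htr5a: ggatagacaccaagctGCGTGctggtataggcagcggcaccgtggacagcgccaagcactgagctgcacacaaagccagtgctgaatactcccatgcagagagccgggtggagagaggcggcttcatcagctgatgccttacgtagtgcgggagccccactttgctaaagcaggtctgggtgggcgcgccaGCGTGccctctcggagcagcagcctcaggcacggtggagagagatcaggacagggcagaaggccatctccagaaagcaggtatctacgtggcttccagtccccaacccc
Enox1: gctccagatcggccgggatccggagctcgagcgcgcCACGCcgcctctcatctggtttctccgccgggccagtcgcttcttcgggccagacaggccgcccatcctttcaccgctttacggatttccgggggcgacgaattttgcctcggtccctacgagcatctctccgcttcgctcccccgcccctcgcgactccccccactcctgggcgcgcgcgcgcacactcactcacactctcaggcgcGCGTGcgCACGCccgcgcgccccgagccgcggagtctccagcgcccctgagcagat

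These start regions had little in common. GCGTG occurred 2 times in that of Htr5a, 3 times in that of Enox1 and not at all in those of Gpld1 and Ceacam1 (chr7:25477576-25477875, minus strand, not printed). Across the 32851 RefSeq start regions of the same length, 32.4% held at least one GCGTG and 11.1% held 2 or more. The ratio of observed to expected CpG was 0.26 for Gpld1, 0.50 for Htr5a and 0.12 for Ceacam1, against a median of 0.38 over all start regions. That of Enox1 was 1.20, at percentile 99.5, with 70.3% G and C. GCGTG itself holds a CpG, and the shares above were not taken among start regions as rich in CpG as this. The start region of Htr5a lies before the start that the count table gives for the gene.

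The genes differed in how present they were before treatment. Level is compared between genes per transcript length, as RPKM (reads scaled to transcript length and library size). In untreated cells the mean RPKM of Epn3 lay between percentiles 11.4 and 19.7 of the tested genes over the 5 lines, and that of Gpld1 between 3.4 and 14.8. Htr5a lay between percentiles 31.1 and 45.5, Enox1 between 27.8 and 50.5 and Ceacam1 between 35.1 and 55.6. So Epn3 and Gpld1 were near the floor of the tested genes in untreated stem cells, while Ceacam1, Htr5a and Enox1 were in the middle range, which does not bear out a reading of all 5 as silent genes of other lineages.

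Depth ranged from 19632704 to 45539021 counted read pairs per library. Library numbers fell into 2 sets: up to 21 for both states of PDS5AB-AID and for untreated Tir1-control, and from 25 for all others, including Tir1-control with auxin. Within the later set, Tir1-control with auxin held the last numbers, 43 to 45. The labels do not say whether library numbers mark batches. In Tir1-control, auxin and library set cannot be told apart, nor can line and library set in untreated comparisons of WAPL-AID, PDS5AB-AID_NIPBL-FKBP or WAPL-AID_NIPBL-FKBP with Tir1-control. No Tir1-control library was given dTAG-13, so dTAG-13 cannot be told apart from loss of NIPBL in the lines with the FKBP degron. In bulk RNA, more cells that express a gene and more RNA per cell cannot be told apart.

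Epn3 was low in all untreated groups and in auxin-treated Tir1-control, and higher after treatment in the 4 degron lines. In Tir1-control the untreated libraries held 1.36, 0.396 and 0.390 CPM (scaled by TMM, edgeR's library-size correction) and the auxin libraries 0.912, 0.588 and 0.767 CPM. Untreated replicate 1 stood above all other libraries of this line, and the groups overlapped. The log2 change was 0.04 (95% interval -0.81 to 0.89, adjusted p = 0.962 by edgeR's quasi-likelihood test). On leaving out 1 library it ranged from -0.28 to 0.94 and did not pass.

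In PDS5AB-AID, Epn3 went from 0.674, 0.562 and 0.497 CPM to 12.1, 6.66 and 8.79 CPM. This is the change that chose the gene, and its log2 value was 3.99. WAPL-AID went from 0.679, 0.494 and 0.827 CPM to 6.33, 3.11 and 4.84 CPM. The lowest treated library was thus above the highest untreated one, and Epn3 rose by log2 2.83 ± 0.35 (SE, adjusted p = 2.19e-07).

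In PDS5AB-AID_NIPBL-FKBP the level of Epn3 was 0.574, 0.348 and 0.524 CPM before and 5.56, 3.54 and 5.95 CPM after auxin and dTAG-13, a rise of log2 3.35 ± 0.38 (adjusted p = 1.09e-07). In WAPL-AID_NIPBL-FKBP it was 1.04, 0.529 and 1.19 CPM before and 4.33, 2.91 and 4.24 CPM after, a rise of log2 2.06 ± 0.35 (adjusted p = 0.000136). The groups did not overlap in either line. These levels rest on few reads in untreated cells, with 8 to 37 counts per untreated library, and on 70 to 325 counts in treated degron libraries.

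**Figure D1:**
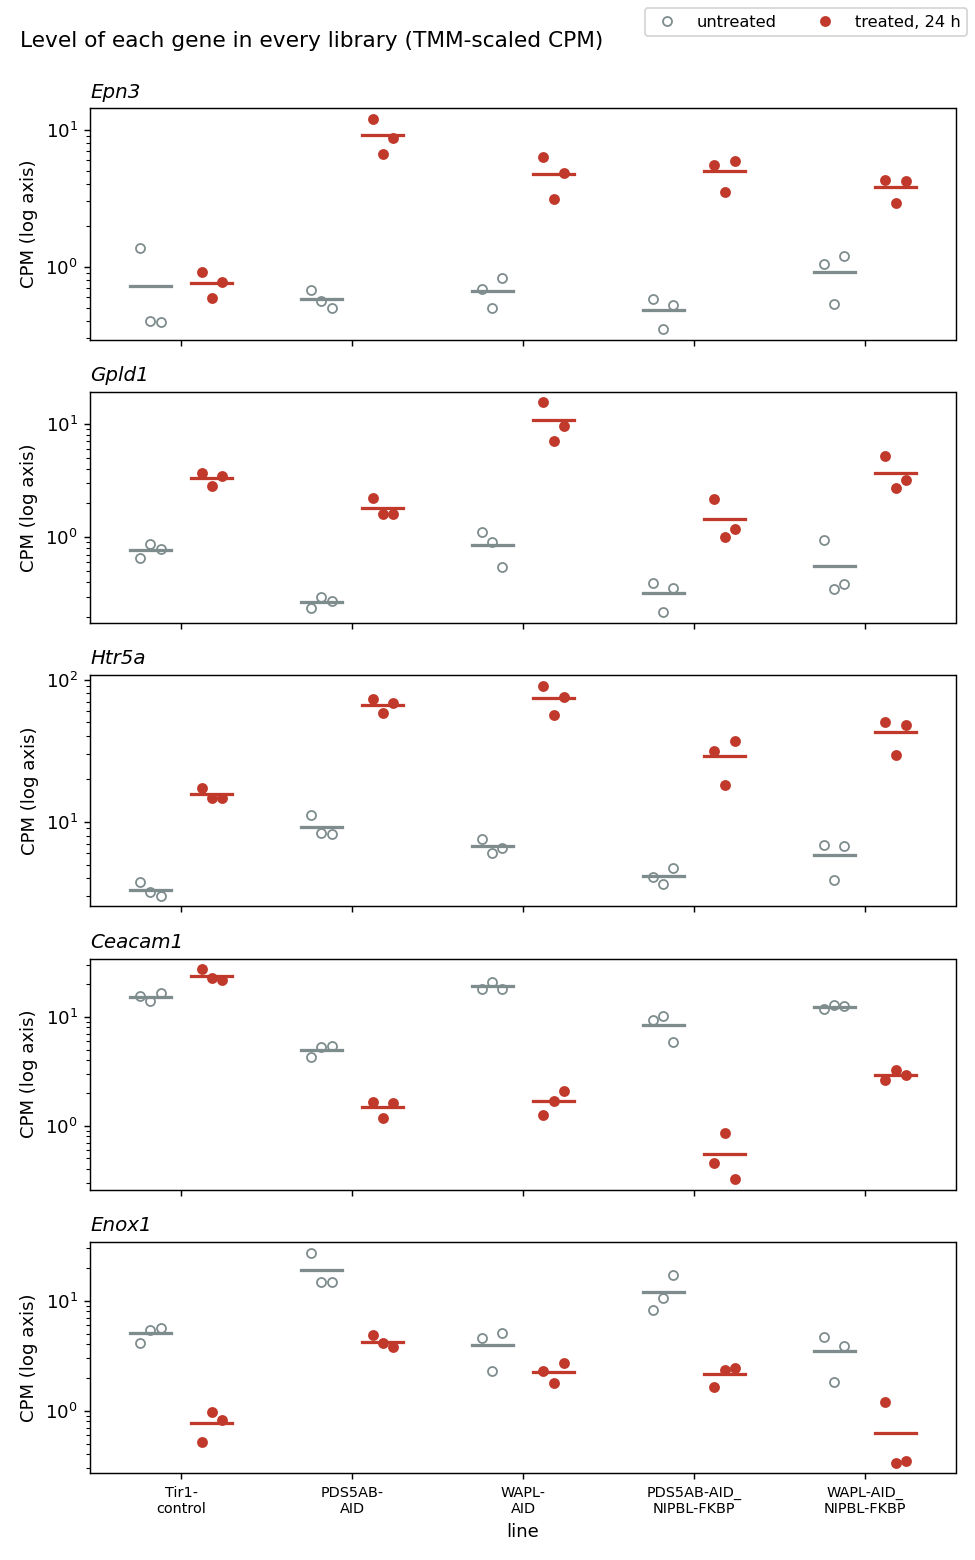
TMM-scaled CPM on a log axis for each gene (rows) in the 5 lines, untreated (open grey points) and treated for 24 h (filled red points). Each point is 1 library, drawn from left to right as replicates 1 to 3, and bars are means over 3 libraries; means of Gpld1 and Htr5a were higher and those of Enox1 lower after treatment in all 5 lines, Tir1-control included, while Epn3 was higher and Ceacam1 lower in the 4 degron lines.

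The effect on Epn3 differed from that in Tir1-control by log2 2.79 ± 0.56 in WAPL-AID (adjusted p = 0.000457) and by 3.32 ± 0.58 in PDS5AB-AID_NIPBL-FKBP (adjusted p = 0.000276). Without Tir1-control untreated replicate 1 these were 1.90 (adjusted p = 0.0296) and 2.42 (adjusted p = 0.0165). For WAPL-AID_NIPBL-FKBP the difference was 2.02 ± 0.55 (adjusted p = 0.0217). This last difference was called only with the full set of libraries or without some of them: the adjusted p was 0.297 without Tir1-control untreated replicate 1 (difference 1.12), 0.0742 without WAPL-AID_NIPBL-FKBP untreated replicate 2, 0.0506 without its treated replicate 3 and 0.0628 without Tir1-control auxin replicate 2. Between WAPL-AID_NIPBL-FKBP and WAPL-AID the effects differed by -0.77 (95% interval -1.81 to 0.28, adjusted p = 0.495). Between PDS5AB-AID_NIPBL-FKBP and WAPL-AID_NIPBL-FKBP they differed by 1.30 (0.20 to 2.39, adjusted p = 0.487), and by 1.31 with adjusted p = 0.024 when replicate number was a block. In untreated cells Epn3 did not pass the test against Tir1-control in WAPL-AID (log2 difference -0.13, interval -1.03 to 0.77), PDS5AB-AID_NIPBL-FKBP (-0.56, -1.52 to 0.39) or WAPL-AID_NIPBL-FKBP (0.33, -0.54 to 1.20).

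Gpld1 was higher after treatment in all 5 lines, Tir1-control included. Its untreated libraries in Tir1-control held 0.661, 0.881 and 0.780 CPM and its auxin libraries 3.65, 2.83 and 3.44 CPM, a log2 difference of 2.09 given without a test. The change that chose it, in WAPL-AID, took it from 1.11, 0.917 and 0.551 CPM to 15.4, 7.07 and 9.58 CPM (log2 3.60). The 3 treated WAPL-AID libraries were above every other library of the series.

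In PDS5AB-AID, Gpld1 rose from 0.236, 0.297 and 0.276 CPM to 2.20, 1.60 and 1.60 CPM, by log2 2.71 ± 0.41 (adjusted p = 2.97e-06). PDS5AB-AID_NIPBL-FKBP rose from 0.395, 0.218 and 0.360 CPM to 2.19, 1.01 and 1.18 CPM, by log2 2.12 ± 0.43 (adjusted p = 0.000554). In WAPL-AID_NIPBL-FKBP the gene rose from 0.948, 0.352 and 0.384 CPM to 5.23, 2.69 and 3.22 CPM, by log2 2.77 ± 0.36 (adjusted p = 3.09e-06). None of these pairs of groups overlapped.

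The tested comparisons of effects on Gpld1 did not pass: the log2 difference was -0.59 between PDS5AB-AID_NIPBL-FKBP and PDS5AB-AID (95% interval -1.90 to 0.72, adjusted p = 0.635) and -0.65 between PDS5AB-AID_NIPBL-FKBP and WAPL-AID_NIPBL-FKBP (-1.89 to 0.60, adjusted p = 0.914). In untreated cells the log2 difference of Gpld1 from Tir1-control was -1.50 in PDS5AB-AID, -1.21 in PDS5AB-AID_NIPBL-FKBP, -0.53 in WAPL-AID_NIPBL-FKBP and 0.18 in WAPL-AID, given without a test. By mean level the treated groups stood in the order PDS5AB-AID_NIPBL-FKBP, PDS5AB-AID, Tir1-control, WAPL-AID_NIPBL-FKBP and WAPL-AID, the libraries of PDS5AB-AID_NIPBL-FKBP and PDS5AB-AID overlapped, as did those of Tir1-control and WAPL-AID_NIPBL-FKBP.

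Htr5a, the receptor, reached the highest levels of the 5 genes per transcript length. In PDS5AB-AID its libraries held 11.1, 8.40 and 8.22 CPM untreated and 73.1, 58.2 and 68.0 CPM with auxin, and it rose by log2 2.85 ± 0.22 (adjusted p = 1.21e-11). WAPL-AID held 7.51, 6.07 and 6.54 CPM untreated and 90.5, 56.2 and 75.5 CPM with auxin, a rise of log2 3.46 ± 0.23 (adjusted p = 7.09e-13). There its mean of 13.8 RPKM was at percentile 80.3 of the tested genes.

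PDS5AB-AID_NIPBL-FKBP libraries held 4.09, 3.66 and 4.75 CPM of Htr5a untreated and 31.6, 18.1 and 37.1 CPM treated, a rise of log2 2.79 ± 0.24 (adjusted p = 7.61e-10). The change that chose the gene, in WAPL-AID_NIPBL-FKBP, went from 6.87, 3.91 and 6.77 CPM to 49.96, 29.4 and 48.2 CPM (log2 2.87). Tir1-control went from 3.75, 3.21 and 3.01 CPM to 17.4, 14.8 and 14.7 CPM (log2 2.23), also given without a test. Treated libraries were above untreated ones of the same line in all 5 lines. Treated Tir1-control was the lowest of the treated groups and still above all untreated libraries.

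Between PDS5AB-AID_NIPBL-FKBP and PDS5AB-AID the effects on Htr5a differed by log2 -0.05 (95% interval -0.71 to 0.61, adjusted p = 0.951). Between PDS5AB-AID and WAPL-AID they differed by -0.61 (-1.23 to 0.00, adjusted p = 0.197), and by -0.60 with adjusted p = 0.000234 under the replicate block or -0.63 with adjusted p = 0.00106 without a filter on low counts. In untreated cells the log2 difference of Htr5a from Tir1-control was 1.47 in PDS5AB-AID, 1.01 in WAPL-AID, 0.33 in PDS5AB-AID_NIPBL-FKBP and 0.80 in WAPL-AID_NIPBL-FKBP, given without a test.

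**Figure D2:**
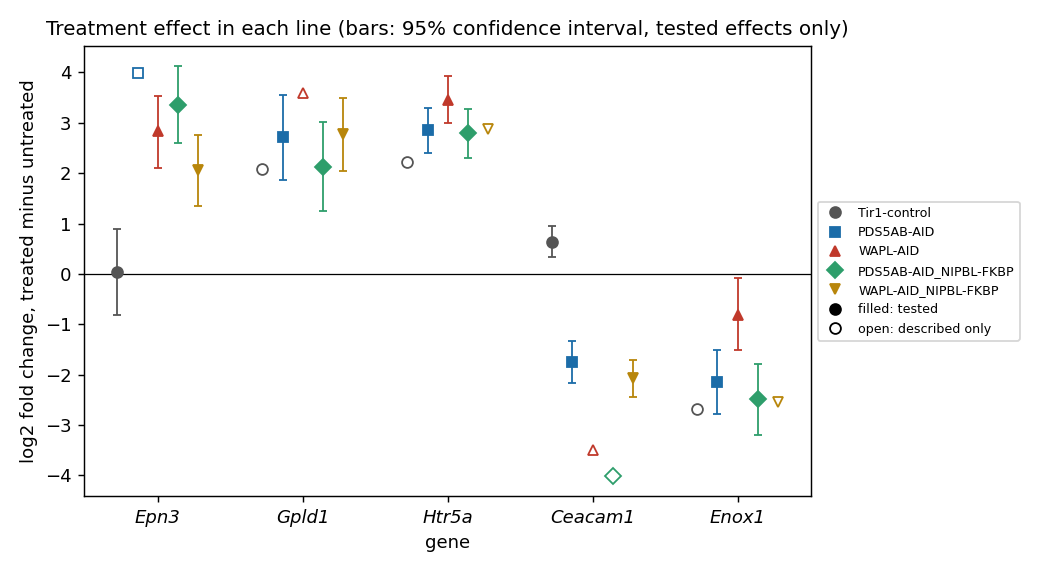
Log2 fold change, treated minus untreated, of each gene in each line. Filled symbols with bars are the 16 tested effects with their 95% intervals and open symbols the 9 described without a test; Ceacam1 lies above 0 in Tir1-control and below it in the 4 degron lines, and of the tested effects that of Epn3 in Tir1-control alone has an interval across 0.

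Ceacam1 was the one gene of the 5 with opposite changes in Tir1-control and in the degron lines. In Tir1-control it rose from 15.5, 13.9 and 16.6 CPM to 27.4, 22.8 and 21.6 CPM, by log2 0.64 ± 0.15 (adjusted p = 0.00317). In PDS5AB-AID it fell from 4.28, 5.29 and 5.35 CPM to 1.64, 1.18 and 1.63 CPM, a log2 change of -1.75 ± 0.21 (adjusted p = 4.72e-08). In WAPL-AID_NIPBL-FKBP it fell from 11.8, 12.97 and 12.5 CPM to 2.64, 3.25 and 2.93 CPM, a log2 change of -2.07 ± 0.18 (adjusted p = 3.98e-09). The groups were apart in each of these lines.

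The changes that chose Ceacam1 were the largest. WAPL-AID went from 18.0, 21.1 and 18.1 CPM to 1.26, 1.67 and 2.09 CPM (log2 -3.49), and PDS5AB-AID_NIPBL-FKBP from 9.43, 10.1 and 5.90 CPM to 0.455, 0.859 and 0.322 CPM (log2 -4.01), where the treated libraries held 9 to 17 counts. The effect differed from that in Tir1-control by log2 -2.39 ± 0.26 in PDS5AB-AID (adjusted p = 6.1e-08) and by -2.71 ± 0.24 in WAPL-AID_NIPBL-FKBP (adjusted p = 8.88e-09).

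Untreated lines also differed in Ceacam1. It was lower in PDS5AB-AID than in Tir1-control by log2 -1.62 ± 0.17 (adjusted p = 4.68e-09), with library numbers of both groups in the same set. In WAPL-AID_NIPBL-FKBP the difference was -0.30 (95% interval -0.63 to 0.02, adjusted p = 0.154, and 0.0408 when the compared groups were fitted alone). From the lowest, the 10 groups stood as the treated groups of PDS5AB-AID_NIPBL-FKBP, PDS5AB-AID, WAPL-AID and WAPL-AID_NIPBL-FKBP, then the untreated groups of PDS5AB-AID, PDS5AB-AID_NIPBL-FKBP, WAPL-AID_NIPBL-FKBP, Tir1-control and WAPL-AID, then treated Tir1-control. Only treated PDS5AB-AID and treated WAPL-AID overlapped among neighbours in this order.

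Enox1 was lower after treatment in every line by its means, with the smallest change in WAPL-AID. It fell in PDS5AB-AID from 27.4, 14.7 and 14.6 CPM to 4.89, 4.08 and 3.79 CPM, a log2 change of -2.15 ± 0.31 (adjusted p = 1.25e-06). It fell in PDS5AB-AID_NIPBL-FKBP from 8.18, 10.7 and 17.3 CPM to 1.64, 2.32 and 2.44 CPM, a change of -2.49 ± 0.35 (adjusted p = 3.35e-06). Both pairs of groups were apart although the untreated libraries were spread widely.

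In WAPL-AID, Enox1 stood at 4.54, 2.29 and 5.04 CPM untreated and at 2.30, 1.79 and 2.69 CPM with auxin. Untreated replicate 2 lay among the treated libraries, and the log2 change of -0.81 (95% interval -1.52 to -0.09) did not pass (adjusted p = 0.0764). It passed with adjusted p = 0.0005 under the replicate block (change -0.78), 0.000167 without a filter on low counts (-0.80) and 0.0246 without that untreated replicate 2 (-1.07).

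The change that chose Enox1, in WAPL-AID_NIPBL-FKBP, went from 4.64, 1.83 and 3.88 CPM to 1.21, 0.337 and 0.348 CPM (log2 -2.55). Tir1-control went from 4.12, 5.37 and 5.64 CPM to 0.517, 0.973 and 0.820 CPM (log2 -2.68), given without a test. Its low level after auxin in Tir1-control was thus about that of the treated WAPL-AID_NIPBL-FKBP libraries, and these 2 groups overlapped.

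Effects on Enox1 differed by log2 -0.34 between PDS5AB-AID_NIPBL-FKBP and PDS5AB-AID (95% interval -1.28 to 0.60, adjusted p = 0.716). Between PDS5AB-AID and WAPL-AID they differed by -1.35 (-2.30 to -0.39, adjusted p = 0.0547), by -1.33 with adjusted p = 3.81e-05 under the replicate block, and by -1.37 when only the compared groups were fitted (adjusted p = 0.0385) or without a filter on low counts (adjusted p = 1.83e-06). It also passed without PDS5AB-AID untreated replicate 2 or 3, WAPL-AID auxin replicate 2 or WAPL-AID untreated replicate 3 (adjusted p from 0.0395 to 0.0459). Untreated Enox1 differed from Tir1-control by log2 1.91 in PDS5AB-AID, 1.26 in PDS5AB-AID_NIPBL-FKBP, -0.35 in WAPL-AID and -0.57 in WAPL-AID_NIPBL-FKBP, given without a test.

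Over the 5 genes, 14 of the 16 tested effects passed, 10 as rises and 4 as falls. Over all tested genes, rises were 10.4%, 25.8%, 17%, 11.4% and 5.11%, and falls 9.59%, 20.2%, 15.8%, 8.06% and 3.45%, in Tir1-control, PDS5AB-AID, WAPL-AID, PDS5AB-AID_NIPBL-FKBP and WAPL-AID_NIPBL-FKBP. By line, the count stands beside the share of all tested genes called in either direction. All 4 tested genes passed in PDS5AB-AID, where 46% of all genes did, and 2 of 3 passed in WAPL-AID, where 32.8% did. In PDS5AB-AID_NIPBL-FKBP 4 of 4 passed against 19.5%, in WAPL-AID_NIPBL-FKBP 3 of 3 against 8.57%, and in Tir1-control 1 of 2 against 19.9%. The genes were picked for strong responses to treatments that share auxin and lines that share degrons, so these counts are no independent support.

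Of the 13 tested differences between effects, 5 passed, and 8 did under the replicate block. All 5 were against Tir1-control, and they share its libraries. Over all genes, the share called against Tir1-control was 26.3% for PDS5AB-AID, 20.7% for WAPL-AID, 10.1% for PDS5AB-AID_NIPBL-FKBP and 7.04% for WAPL-AID_NIPBL-FKBP. Among the comparisons between degron lines it was 9.46% for PDS5AB-AID_NIPBL-FKBP against PDS5AB-AID, 5.19% for WAPL-AID_NIPBL-FKBP against WAPL-AID, 12.5% for PDS5AB-AID against WAPL-AID and 0.362% for PDS5AB-AID_NIPBL-FKBP against WAPL-AID_NIPBL-FKBP. Of the 5 tested untreated differences from Tir1-control, all of Epn3 or Ceacam1, 1 passed, that of Ceacam1 in PDS5AB-AID. The share over all genes was 32% for PDS5AB-AID, 14% for WAPL-AID, 34.3% for PDS5AB-AID_NIPBL-FKBP and 28% for WAPL-AID_NIPBL-FKBP.

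Treated and untreated libraries did not overlap for 4 of the 5 genes in Tir1-control (39.2% of all tested genes), 5 of 5 in PDS5AB-AID (52.8%), 4 of 5 in WAPL-AID (40.2%), 5 of 5 in PDS5AB-AID_NIPBL-FKBP (33.4%) and 5 of 5 in WAPL-AID_NIPBL-FKBP (27%). Effects that chose the genes are among these counts.

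Neighbouring genes within 250 kb were read next. The table held 91 of them, and 61 were tested: 15 beside Epn3, 11 beside Gpld1, 6 beside Htr5a, 25 beside Ceacam1 and 4 beside Enox1. Of the 61, 8 passed in Tir1-control (13.1%), 30 in PDS5AB-AID (49.2%), 19 in WAPL-AID (31.1%), 18 in PDS5AB-AID_NIPBL-FKBP (29.5%) and 3 in WAPL-AID_NIPBL-FKBP (4.92%). Over all tested genes the shares were 19.9%, 46%, 32.8%, 19.5% and 8.57% in the same order of lines. The share among neighbours was above that background in PDS5AB-AID_NIPBL-FKBP, below it in Tir1-control and within 4 percentage points of it in PDS5AB-AID, WAPL-AID and WAPL-AID_NIPBL-FKBP. These differences were not tested. In WAPL-AID_NIPBL-FKBP the count was 14 under the replicate block, a setting under which 4152 of all 19868 genes were called. The Tir1-control count was 5 without untreated replicate 1, auxin replicate 2 or auxin replicate 3, and the WAPL-AID count was 11 without untreated replicate 1 or auxin replicate 3 and 12 without auxin replicate 2.

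Of the 15 tested neighbours of Epn3, 10 passed in PDS5AB-AID (6 higher and 4 lower), where 46% of all tested genes did. Their median log2 change over all 15 was 0.05, against 0.04 over all tested genes. In WAPL-AID 6 of the 15 passed, 3 higher and 3 lower. The nearest genes on both sides of Epn3 were higher together with it in PDS5AB-AID. Spata20, 3.4 kb to the left, rose from 11, 4 and 15 counts to 37, 41 and 53 counts (log2 2.25, adjusted p = 3.66e-05). Mycbpap, 1.4 kb to the right, rose from 9, 1 and 10 counts to 23, 21 and 29 counts (log2 1.98, adjusted p = 0.00126). Cacna1g, which encodes a T-type calcium channel and lies 15.4 kb to the left, had the largest called change of the neighbourhood there, from 63, 71 and 78 counts to 355, 391 and 390 counts (log2 2.55, adjusted p = 1.53e-10).

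This run of 4 adjacent genes, all on the minus strand, was less regular in the other lines. In WAPL-AID, Spata20 (log2 2.33, adjusted p = 0.000628) and Cacna1g (2.22, adjusted p = 3.16e-06) rose with Epn3, while Mycbpap did not pass (1.35, adjusted p = 0.141). In PDS5AB-AID_NIPBL-FKBP Cacna1g rose by 0.99 (adjusted p = 0.0174), a call lost without untreated replicate 1 or 3 or treated replicate 3 (adjusted p = 0.0587, 0.118 and 0.0998), and neither Spata20 (1.31, adjusted p = 0.13) nor Mycbpap (0.65, adjusted p = 0.573) passed. No gene within 250 kb of Epn3 passed in WAPL-AID_NIPBL-FKBP, where Epn3 itself rose. Untreated Cacna1g also differed by line in its means, from 0.203 CPM in Tir1-control to 2.21 CPM in PDS5AB-AID, whereas untreated Epn3 did not exceed a mean of 0.919 CPM in any line. No gene of the table overlaps Epn3, and reads that run on from one of these genes into the next were not tested.

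**Figure D3:**
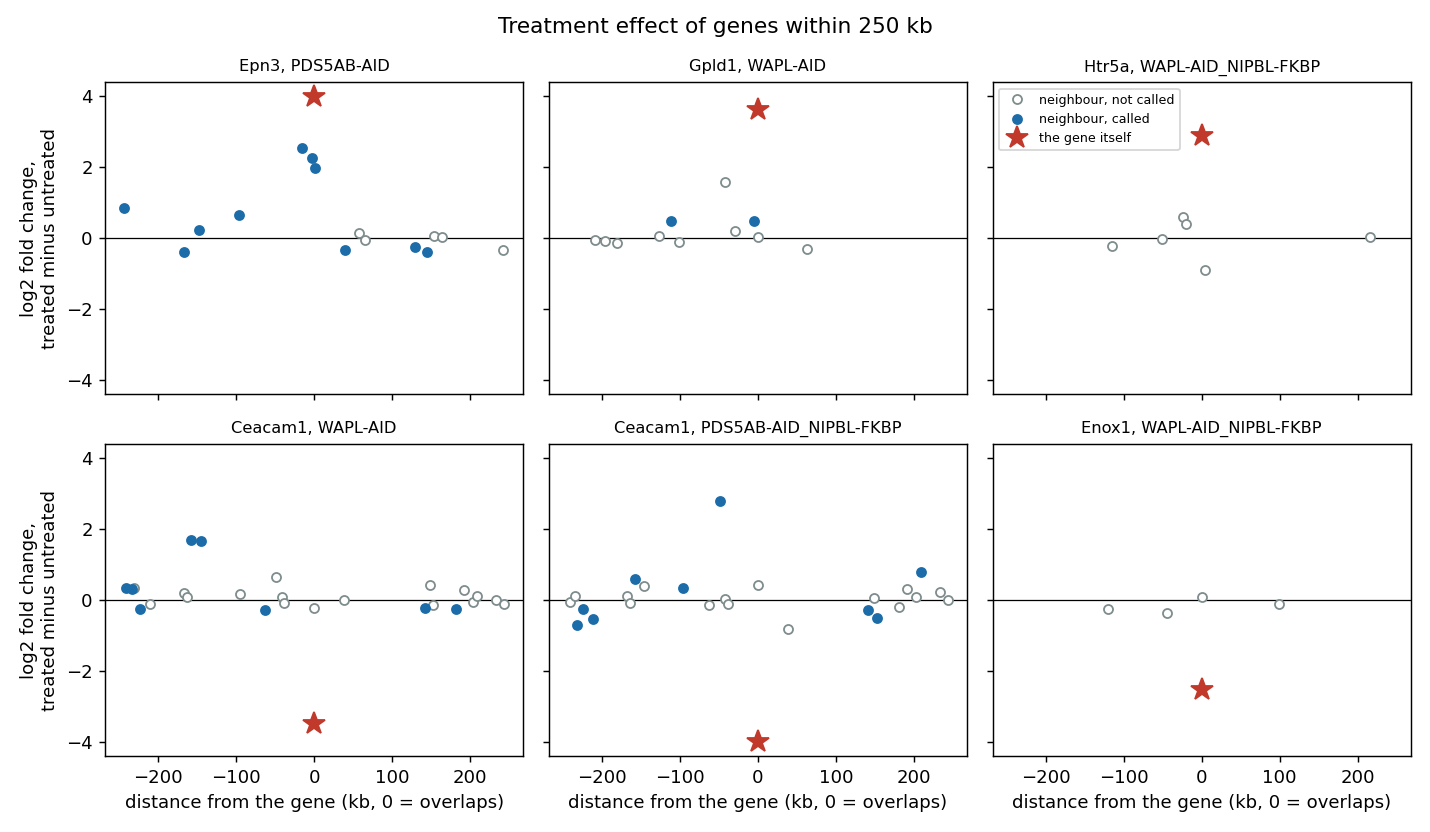
Log2 fold change, treated minus untreated, of the tested genes within 250 kb of each gene against distance from its nearer end (negative to the left, 0 where they overlap), for the effects that chose the genes. Stars are the genes themselves, filled points neighbours that passed and open points those that did not; the filled points nearest Epn3 lie above 0, and near Htr5a and Enox1 no neighbour passed.

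Of the 11 tested neighbours of Gpld1, 6 passed in PDS5AB-AID (4 higher and 2 lower) and 2 in WAPL-AID, both higher. Mrs2, a mitochondrial magnesium channel gene, overlaps the end of Gpld1 on the opposite strand. Since reads were counted without strand and reads in more than one gene were left out, reads of the shared stretch are missing from both genes. Mrs2 changed by log2 0.03 in WAPL-AID (adjusted p = 0.842), where Gpld1 changed most, and by 0.21 in Tir1-control (adjusted p = 0.106). It rose in PDS5AB-AID by 0.93 (adjusted p = 1.65e-09), in PDS5AB-AID_NIPBL-FKBP by 0.30 (adjusted p = 0.0179) and in WAPL-AID_NIPBL-FKBP by 0.35 (adjusted p = 0.0108). The last 2 calls were lost in several fits without 1 library, with adjusted p up to 0.0831 and 0.09.

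Aldh5a1, 5.5 kb to the left of Gpld1, encodes an enzyme of GABA breakdown. Its log2 change was 0.94 in PDS5AB-AID (adjusted p = 1.47e-06), 0.47 in WAPL-AID (adjusted p = 0.0065, and 0.0586 without auxin replicate 2), 0.39 in Tir1-control (adjusted p = 0.0379, up to 0.108 without 1 library), 0.39 in PDS5AB-AID_NIPBL-FKBP (adjusted p = 0.0394, up to 0.25 without untreated replicate 3) and 0.40 in WAPL-AID_NIPBL-FKBP (adjusted p = 0.0565). The largest called changes near Gpld1 in PDS5AB-AID were further off and at low levels. D130043K22Rik, 41.9 kb to the left, rose there from a mean of 0.143 to 0.467 CPM (log2 1.66, adjusted p = 0.0182), a call lost without untreated or auxin replicate 2 (adjusted p = 0.107 and 0.0563). Ripor2, 209.3 kb to the left, rose there from 0.319 to 0.911 CPM (log2 1.50, adjusted p = 0.0016), and both genes passed in no other line. Dcdc2a, 63.5 kb to the right, passed in no line. The largest called change near Gpld1 in WAPL-AID was that of Acot13, 111.6 kb away, at 0.49 (adjusted p = 0.00942).

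Of the 6 tested neighbours of Htr5a, 2 passed in Tir1-control, both higher, 3 in PDS5AB-AID (1 higher and 2 lower), 2 lower in WAPL-AID, 1 lower in PDS5AB-AID_NIPBL-FKBP and none in WAPL-AID_NIPBL-FKBP. Next to it lie processed pseudogenes, Gm20239 at 20.2 kb on the left, which passed in no line, and Gm43096 at 4.9 kb on the right, which fell in PDS5AB-AID only (log2 -1.17, adjusted p = 0.0147, up to 0.0698 without 1 library). Dpp6, 114.6 kb to the left, encodes a subunit of neuronal potassium channels. It rose in Tir1-control (log2 0.76, adjusted p = 0.00259) and fell in PDS5AB-AID (-0.66, adjusted p = 0.00918), WAPL-AID (-0.72, adjusted p = 0.00224) and PDS5AB-AID_NIPBL-FKBP (-0.95, adjusted p = 0.000477), while Htr5a was higher after treatment in all 4. Paxip1, 50.5 kb to the left, rose in Tir1-control (0.31, adjusted p = 0.000408) and fell in WAPL-AID (-0.22, adjusted p = 0.00503, 0.0542 without auxin replicate 1 and 0.0951 with the compared groups alone). The pseudogene Gm43433, 24.2 kb to the left, rose in PDS5AB-AID (0.68, adjusted p = 0.045), a call lost in 4 of the 6 fits without 1 library (adjusted p up to 0.182), without a filter on low counts (0.082) and by DESeq2 (0.0531). The median log2 change of its neighbours was 0.06 in PDS5AB-AID, -0.15 in WAPL-AID and 0.24 in PDS5AB-AID_NIPBL-FKBP, the 3 lines with a tested rise of Htr5a, against 0.04, 0.00 and 0.00 over all tested genes.

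No gene next to Ceacam1 passed in any line. The antisense gene 4732471J01Rik covers it on the plus strand and changed by log2 -0.27 in Tir1-control, 0.01 in PDS5AB-AID, -0.22 in WAPL-AID, 0.41 in PDS5AB-AID_NIPBL-FKBP and 0.25 in WAPL-AID_NIPBL-FKBP, none of which passed. Counting was without strand, so strand did not separate reads of the pair. Reads in more than one gene were left out, so those where their exons meet are missing from both. The nearest tested genes, the pseudogene Gm20949 at 38.9 kb on the left and Ceacam2 at 38.4 kb on the right, passed in no line.

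Of the 25 tested neighbours of Ceacam1, 3 rose and 5 fell in PDS5AB-AID, 4 rose and 4 fell in WAPL-AID, 4 rose and 5 fell in PDS5AB-AID_NIPBL-FKBP, 2 rose in WAPL-AID_NIPBL-FKBP and 2 fell in Tir1-control. Prr19, 157.6 kb to the left, rose in WAPL-AID from a mean of 3.44 ± 0.32 to 11.03 ± 2.29 CPM (SD, n = 3; log2 1.68, adjusted p = 1.49e-08 by edgeR). Cxcl17, which encodes a mucosal chemokine and lies 48.8 kb to the left, rose in PDS5AB-AID_NIPBL-FKBP from 1, 2 and 6 counts to 22, 15 and 17 counts (log2 2.78, adjusted p = 0.000143). Prr19 also rose in PDS5AB-AID_NIPBL-FKBP by 0.60 (adjusted p = 0.0109, and 0.0698 without untreated replicate 2) and in WAPL-AID_NIPBL-FKBP by 1.01 (adjusted p = 0.000129), and changed by -0.04 in PDS5AB-AID (adjusted p = 0.856), where Ceacam1 fell as well. In WAPL-AID_NIPBL-FKBP Cxcl17 rose too, by 1.72 (adjusted p = 0.00511, and 0.0527 without untreated replicate 2). The largest called changes were falls in the remaining lines, with Erf, 210.9 kb to the left, at -0.56 in PDS5AB-AID (adjusted p = 0.000272) and Bckdha, 152.3 kb to the right, at -0.47 in Tir1-control (adjusted p = 0.000986).

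Enox1 is long enough to hold other genes: 7 genes of the table overlap it, 6 of them on the opposite strand. Only Gm10132 of these was tested, and it passed in no line. Ccdc122, 44.5 kb to the left, rose in PDS5AB-AID by log2 0.66 (adjusted p = 0.0168, and 0.0727 without untreated replicate 2), and Dnajc15, 98.9 kb to the right, fell there (log2 -0.29, adjusted p = 0.0119, and 0.0629 without auxin replicate 1). In Tir1-control Dnajc15 changed by -0.32 (adjusted p = 0.0169), a call lost in 4 of the 6 fits without 1 library (adjusted p up to 0.085). Lacc1, 119.9 kb to the left, rose in PDS5AB-AID (log2 0.51, adjusted p = 0.00184) and PDS5AB-AID_NIPBL-FKBP (0.90, adjusted p = 1.84e-05), where Enox1 fell. It also rose in WAPL-AID (0.39, adjusted p = 0.0477), a call lost in 4 of the 6 fits without 1 library (adjusted p up to 0.178), without a filter on low counts (0.18), by DESeq2 (0.0521) and with the compared groups alone (0.1). No tested neighbour of Enox1 passed in WAPL-AID_NIPBL-FKBP.

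Relatives of the 5 genes were compared in lists of family or pathway genes. Counts in each list are to be read beside the share of all tested genes called in either direction. That share was 46% in PDS5AB-AID, 32.8% in WAPL-AID, 19.5% in PDS5AB-AID_NIPBL-FKBP, 8.57% in WAPL-AID_NIPBL-FKBP and 19.9% in Tir1-control. Whether any list departed from these shares was not tested. Epn1 and Epn2, the broadly expressed epsins, lay between means of 80.3 and 112 CPM and passed in no line. Among 22 genes of epsins and clathrin adaptors, all tested, 7 rose and 2 fell in PDS5AB-AID, 2 rose and 2 fell in WAPL-AID, 2 rose and 1 fell in PDS5AB-AID_NIPBL-FKBP, 1 rose in WAPL-AID_NIPBL-FKBP and 6 rose in Tir1-control. The median log2 change of the list was 0.13 in PDS5AB-AID, where that of all tested genes was 0.04, and within 0.05 of 0 elsewhere. Snap91, a clathrin assembly protein gene, had the largest called change in 3 lines, with 0.82 in WAPL-AID (adjusted p = 7.42e-06), 0.85 in PDS5AB-AID_NIPBL-FKBP (adjusted p = 8.5e-06) and 0.91 in WAPL-AID_NIPBL-FKBP (adjusted p = 1.73e-05). In PDS5AB-AID it was Hip1r (0.89, adjusted p = 8.78e-05) and in Tir1-control Fcho2 (0.60, adjusted p = 0.000745).

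Of 29 genes that build, remodel or remove GPI anchors, 28 were tested. Between 0 and 6 rose and between 0 and 2 fell per line, with list medians from 0.02 to 0.08. Pigz, a mannosyltransferase of anchor synthesis, rose by log2 2.56 in PDS5AB-AID (adjusted p = 2.39e-06) and by 2.16 in PDS5AB-AID_NIPBL-FKBP (adjusted p = 0.00025), and changed by 0.46 in WAPL-AID (adjusted p = 0.381), where Gpld1 reached its highest level. In Tir1-control the largest called change was that of Pgap1 (0.90, adjusted p = 0.00129), in WAPL-AID that of Mppe1 (-0.52, adjusted p = 0.00189) and in WAPL-AID_NIPBL-FKBP that of Pigl (-0.37, adjusted p = 0.0205, up to 0.17 without 1 library).

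Among 21 serotonin receptor and metabolism genes, 10 were tested. Htr5b, the closest relative of Htr5a, was not: it had at most 3 counts in any library except those of PDS5AB-AID with auxin, which reached 13. Htr3a, the gated ion channel among serotonin receptors, rose in the 4 degron lines, by log2 2.47 in PDS5AB-AID (adjusted p = 1.44e-07), 3.26 in WAPL-AID (adjusted p = 1.12e-09), 1.89 in WAPL-AID_NIPBL-FKBP (adjusted p = 0.00152) and 2.05 in PDS5AB-AID_NIPBL-FKBP (adjusted p = 0.0224), where it reached at most 7 counts and the call was lost in 3 fits without 1 library (adjusted p up to 0.174), without a filter on low counts (0.0747) and by DESeq2 (0.0555). In Tir1-control Htr3a changed by -0.11 (adjusted p = 0.92), while Htr5a was higher after auxin there too. In all, 4 rose and 1 fell in PDS5AB-AID, 3 rose in WAPL-AID, 1 rose and 1 fell in PDS5AB-AID_NIPBL-FKBP, 1 rose in WAPL-AID_NIPBL-FKBP and 1 rose and 1 fell in Tir1-control. The fall in Tir1-control was that of the monoamine oxidase gene Maob, which had no count in any of the 3 auxin libraries and a mean of 0.0889 CPM without auxin.

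Only 5 of the 27 other CEACAM and pregnancy-specific glycoprotein genes were tested. Ceacam2, the closest relative of Ceacam1, stayed between means of 0.193 and 1.03 CPM and passed in no line. Ceacam10 rose in Tir1-control (log2 1.04, adjusted p = 0.000187) and fell in WAPL-AID (-1.06, adjusted p = 0.000225), the same directions as Ceacam1 in these lines, but changed by 0.02 in PDS5AB-AID and by -0.02 in WAPL-AID_NIPBL-FKBP (adjusted p = 0.94 and 0.978). Ceacam19 rose in PDS5AB-AID (2.01, adjusted p = 0.00709, and 0.0941 without auxin replicate 1), and Ceacam20 fell in WAPL-AID_NIPBL-FKBP (-0.51, adjusted p = 0.0124, up to 0.0918 without 1 library). Per line, 1 rose in Tir1-control, 2 rose in PDS5AB-AID, 2 fell in WAPL-AID, 1 fell in WAPL-AID_NIPBL-FKBP and none passed in PDS5AB-AID_NIPBL-FKBP, where Ceacam1 was lowest.

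Enox2, the relative of Enox1, fell in PDS5AB-AID (log2 -0.51, adjusted p = 0.000344) and changed by -0.28 to -0.05 in the other lines without passing. Among 14 genes of electron transport at the cell surface, all tested, 3 rose and 6 fell in PDS5AB-AID, 4 rose and 4 fell in WAPL-AID, 2 rose and 1 fell in PDS5AB-AID_NIPBL-FKBP, 1 rose in WAPL-AID_NIPBL-FKBP and 1 rose and 2 fell in Tir1-control. Steap3, a metalloreductase gene, had the largest called change in WAPL-AID (1.57, adjusted p = 2.82e-07), PDS5AB-AID_NIPBL-FKBP (1.02, adjusted p = 0.000384) and WAPL-AID_NIPBL-FKBP (0.80, adjusted p = 0.0082, up to 0.0691 without 1 library). In PDS5AB-AID it was Cybrd1 (1.11, adjusted p = 3.15e-05) and in Tir1-control Steap1 (-0.78, adjusted p = 0.00212).

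Likeness of pattern was measured by Pearson's r of log2 CPM over the 30 libraries, which share lines and treatments, among 12941 genes averaging 50 counts or more. It is a description without a p. Epn3 and Htr5a were alike (r = 0.90), Gpld1 and Htr5a less so (0.78), and Ceacam1 ran opposite to Epn3 (-0.82). Enox1 ran opposite to Gpld1 (-0.70) and stood at 0.07 with Ceacam1. The means of both Enox1 and Ceacam1 were nonetheless lower after treatment than before it in every degron line. Replacing r by Spearman's rho gave 0.86, 0.76, -0.70, -0.76 and 0.04 for the same pairs.

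Outside the 5 genes, the patterns most like Epn3 were those of Zbtb7c (r = 0.956), Scarf2 (0.945) and Dlgap4 (0.937). For Htr5a they were AA986860 (0.953), Tmem19 (0.932) and again Scarf2 (0.922), whose mean went from 1.37 to 5.58 CPM in PDS5AB-AID and from 1.59 to 1.96 CPM in Tir1-control. For Gpld1 they were Irak2 (0.923), Fam118a (0.922) and Casr (0.909). Ceacam1 was most like Il6ra (0.959), the receptor subunit for interleukin 6, Tfap2c (0.928), a transcription factor of trophoblast and germ cells, and St8sia6 (0.928). Tfap2c went from 75.8 to 118 CPM in Tir1-control and from 81.7 to 18.4 CPM in WAPL-AID, a swing in both directions like that of Ceacam1. Enox1 was most like Phc1 (0.910), a Polycomb subunit gene of stem cells, Adam23 (0.910) and Slc7a7 (0.901). Spearman's rho, or r over the 10 group means, gave values from 0.847 (rho of Scarf2 with Htr5a) to 0.986 (group means of Irak2 with Gpld1) for the 15 pairs, and 15 of these 30 values differed from r by more than its jackknife error over libraries.

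Marker lists of cell types were read beside the 5 genes, and their part in the results was not tested. The share of all tested genes called in either direction was 46% in PDS5AB-AID, 32.8% in WAPL-AID, 19.5% in PDS5AB-AID_NIPBL-FKBP, 8.57% in WAPL-AID_NIPBL-FKBP and 19.9% in Tir1-control. Of 10 embryonic stem cell markers, all tested, 10 fell in PDS5AB-AID, 7 in WAPL-AID, 8 in PDS5AB-AID_NIPBL-FKBP and 7 in WAPL-AID_NIPBL-FKBP, with no rise, while 4 fell and 2 rose in Tir1-control. Their summed level was 7298 to 8249 CPM untreated and 4841 to 5443 CPM treated in PDS5AB-AID, 7099 to 7442 and 5645 to 5891 CPM in WAPL-AID, 7592 to 7934 and 6275 to 6543 CPM in PDS5AB-AID_NIPBL-FKBP, 7237 to 7500 and 6050 to 6346 CPM in WAPL-AID_NIPBL-FKBP and 7166 to 7502 and 6785 to 7228 CPM in Tir1-control. The markers of the labelled cell type were thus present in all groups.

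For gut and surface epithelium, where Epn3 and Ceacam1 are usually found, 10 of 12 markers were tested. Of these, 7 rose and 1 fell in PDS5AB-AID, 6 rose and 1 fell in WAPL-AID, 4 rose and 1 fell in PDS5AB-AID_NIPBL-FKBP, 2 rose and 1 fell in WAPL-AID_NIPBL-FKBP and 4 rose in Tir1-control. The largest called change was that of the intestinal transcription factor gene Cdx2 in Tir1-control (log2 2.78, adjusted p = 9.32e-10). In the other lines it was a keratin: Krt19 in PDS5AB-AID (2.62, adjusted p = 4.48e-08), Krt18 in WAPL-AID (1.37, adjusted p = 3.58e-06) and Krt8 in PDS5AB-AID_NIPBL-FKBP (0.91, adjusted p = 4.47e-06) and WAPL-AID_NIPBL-FKBP (0.89, adjusted p = 4.22e-05). The sum went from 716 to 763 CPM untreated to 1086 to 1157 CPM treated in PDS5AB-AID and from 875 to 909 to 1096 to 1130 CPM in Tir1-control. In WAPL-AID it was 995 to 1015 CPM untreated and 1174 to 1223 CPM treated, in PDS5AB-AID_NIPBL-FKBP 816 to 913 and 875 to 957 CPM, and in WAPL-AID_NIPBL-FKBP 987 to 1017 and 1018 to 1062 CPM. Untreated cells of all 5 lines already held 716 CPM or more of this sum, so the list does not mark these epithelia alone. Tff3 had at most 3 counts in any library.

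For hepatocytes, the main source of Gpld1, 2 of 10 markers were tested (Hnf4a and Trf). Serpina1a had no count in any library, and Alb had at most 9, Apoa1 at most 9, Ttr at most 4 and Fgb at most 1. In Tir1-control 1 of the 2 rose and 1 fell, 1 fell in WAPL-AID and 1 in PDS5AB-AID_NIPBL-FKBP, and the list's sum lay between 6.74 and 19.2 CPM over all groups. For neurons and neural progenitors, where Htr5a is usually found, 10 of 12 were tested: 2 rose and 3 fell in PDS5AB-AID, 1 rose and 2 fell in WAPL-AID, 1 rose and 2 fell in PDS5AB-AID_NIPBL-FKBP, 2 fell in WAPL-AID_NIPBL-FKBP and 3 fell in Tir1-control. The 1 that rose in WAPL-AID was Pax6, a transcription factor gene of neural progenitors, from a mean of 0.121 to 1.13 CPM (log2 3.22, adjusted p = 2.06e-06), at most 39 counts in a library. Its changes in the other lines lay between -0.41 and 0.86 and did not pass. The largest called change in 3 lines was that of the neural progenitor gene Sox1, with -0.98 in PDS5AB-AID (adjusted p = 4.62e-06), -1.13 in PDS5AB-AID_NIPBL-FKBP (adjusted p = 1.35e-05) and -0.91 in WAPL-AID_NIPBL-FKBP (adjusted p = 0.000378). In Tir1-control it was that of the neuronal tubulin gene Tubb3 (-0.52, adjusted p = 0.00779, and 0.053 without untreated replicate 2). Their lowest summed level went from 390 CPM untreated to 348 CPM treated in PDS5AB-AID, and the range was 402 to 439 CPM untreated and 327 to 353 CPM treated in WAPL-AID. Htr5a rose in both. In PDS5AB-AID_NIPBL-FKBP it was 537 to 569 and 504 to 540 CPM, in WAPL-AID_NIPBL-FKBP 528 to 548 and 470 to 491 CPM and in Tir1-control 474 to 533 and 398 to 413 CPM. The neuronal glutamate transporter gene Slc17a6 had at most 2 counts in any library. For fibroblasts, 5 of 8 were tested, and 3 rose and 1 fell in PDS5AB-AID, 2 rose and 3 fell in WAPL-AID, 2 rose and 1 fell in PDS5AB-AID_NIPBL-FKBP, and 1 rose and 1 fell in both WAPL-AID_NIPBL-FKBP and Tir1-control. Their summed level was 330 to 421 CPM untreated and 244 to 292 CPM treated in PDS5AB-AID and 504 to 646 and 637 to 863 CPM in WAPL-AID, and in the other lines it lay between 373 and 712 CPM.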

How the data were processed

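RNA was sequenced in 30 libraries. Per the submitters' processing notes, reads were trimmed with cutadapt, aligned with STAR 2.7.7a to GRCm38.p6 (mm10) and counted per gene with featureCounts 2.0.1 on GENCODE vM23. The authors deposited raw counts, per the file headers from unstranded paired-end counting, although the labels' protocols name a stranded polyA kit. Gene symbols were matched for 99.5% of 55421 genes.

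Counts were fitted with edgeR 4.0.16 (R 4.3.3, limma 3.58.1): TMM scaling, filterByExpr with minimum count 10, quasi-likelihood tests in 1 model of all 10 groups, and Benjamini-Hochberg adjustment over 19868 genes with a threshold of 0.05. The fit was tested on simulated data. DESeq2 1.42.0, RLE factors, no filter, compared groups alone, a replicate block, leaving out libraries and other neighbour windows were alternatives. Levels are TMM-scaled CPM. Totals ranged from 19632704 to 45539021 counts.

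Same-numbered untreated and treated libraries deviated together in the 4 degron lines (r over 0.1 in every pair, from 0.109 to 0.333). They did not in Tir1-control (0.0574, -0.0102 and -0.00525). The numbers, taken from the labels, were therefore read as pairing the degron lines only. The main model had no term for this pairing, so its p-values, errors and intervals for degron lines are those of an unpaired fit. The replicate block used the numbers, but also in Tir1-control, where they do not pair. On the chosen genes, results within or between degron lines that passed under the block but not in the main model are undecided.

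The genes and lists were chosen with earlier results of these data known. Named were the 5 genes, overlapping and nearest tested genes, the largest called neighbour within 250 kb in the effect that chose a gene, the 3 most alike genes, the largest called gene per family list and line, closest paralogues and Cyp1a1. Overlapping genes that were not tested are given as a count. Chosen after their values were seen: the values of Spata20, Mycbpap, Cacna1g, Prr19, Cxcl17 and Pigz in further lines, the neighbours D130043K22Rik, Ripor2, Dpp6, Paxip1, Gm43433, Lacc1, Erf and Bckdha, the largest called changes of the marker lists, and the levels of single markers.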

Additional observations from a re-analysis of the deposited data

Results flagged for a closer look

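These 5 results are listed because the change in a degron line differed from that in Tir1-control by the test of the difference itself (edgeR's quasi-likelihood test, adjusted over all tested genes). All share the 6 Tir1-control libraries. For Epn3 the log2 difference was 2.79 for WAPL-AID (adjusted p = 0.000457), 3.32 for PDS5AB-AID_NIPBL-FKBP (adjusted p = 0.000276) and 2.02 for WAPL-AID_NIPBL-FKBP (adjusted p = 0.0217). In the same order they fell to 1.90 (adjusted p = 0.0296), 2.42 (adjusted p = 0.0165) and 1.12 (adjusted p = 0.297) without Tir1-control untreated replicate 1, which held 1.36 CPM of Epn3 against 0.396 and 0.390 CPM in the other replicates. For Ceacam1 it was -2.39 for PDS5AB-AID (adjusted p = 6.1e-08) and -2.71 for WAPL-AID_NIPBL-FKBP (adjusted p = 8.88e-09). Untreated and auxin-treated Tir1-control fall in different sets of library numbers, and the part of that in these differences cannot be told apart from that of auxin in this line. Tir1-control was given no dTAG-13 and has no Halo tag on RAD21. In the NIPBL-FKBP lines neither can be told apart from loss of the tagged regulators of cohesin.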

How the results depend on the processing

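The 9 effects described without a test kept their direction in all 99 alternatives run. Of 452 alternatives to the 34 tested results on the 5 genes, 422 kept direction and side of the threshold, 4 lost the call, 14 gained it and 12 reversed. All reversals were of results that did not pass, on leaving out 1 library: the Epn3 effect in Tir1-control (-0.22, -0.28 and -0.10, up to 0.94), the untreated Epn3 differences of WAPL-AID (0.76 and 0.05, down to -0.45) and PDS5AB-AID_NIPBL-FKBP (0.32, down to -0.88) from Tir1-control, and the differences between the effects of PDS5AB-AID_NIPBL-FKBP and PDS5AB-AID on Htr5a (0.04, 0.01, 0.03, 0.20 and 0.06, down to -0.26) and Enox1 (0.03, down to -0.70). The causes were not tested.

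The replicate block raised the genes called from 3962 to 7065 in Tir1-control, where the numbers do not pair, from 3874 to 6377 in PDS5AB-AID_NIPBL-FKBP and from 1702 to 4152 in WAPL-AID_NIPBL-FKBP, and the differences called among the 5 genes from 5 to 8. Beside the calls named in the text, it changed no call on the 5 genes. Without 1 library the genes called ranged from 2689 to 3362 in Tir1-control, 8084 to 8642 in PDS5AB-AID, 5275 to 6347 in WAPL-AID, 2859 to 3335 in PDS5AB-AID_NIPBL-FKBP and 1147 to 1334 in WAPL-AID_NIPBL-FKBP. Of the tested results on the 5 genes, the effects called then numbered 14 to 15, the differences 4 to 6 and the untreated differences 1, while 2 untreated differences were called with the compared groups alone.

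Counts of called neighbours moved with the window, which sets how many genes are read: at 100 kb and 1000 kb they were 3 and 28 in Tir1-control, 13 and 75 in PDS5AB-AID, 7 and 39 in WAPL-AID and 6 and 31 in PDS5AB-AID_NIPBL-FKBP, and at 1000 kb 9 in WAPL-AID_NIPBL-FKBP. Tir1-control had 15 with the block and 5 to 8 without 1 library. WAPL-AID had 11 with the compared groups alone and 11 to 18 without 1 library. WAPL-AID_NIPBL-FKBP had 5 without a filter, 6 by DESeq2, 14 with the block and 2 to 4 without 1 library. PDS5AB-AID ranged from 24 to 32 and PDS5AB-AID_NIPBL-FKBP from 14 to 16 without 1 library. Untreated Epn3 and Gpld1 rest on 5 to 37 counts per library, which limits their precision.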

Other observations

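The libraries of a treated group differed in a recurring way for the 3 genes that were high after treatment. Over Epn3, Gpld1 and Htr5a in the 4 treated degron lines, replicate 2 was the lowest library in 11 of 12 combinations of gene and line, and replicate 1 the highest in 10 of 12. For Gpld1 in WAPL-AID the range was 7.07 to 15.4 CPM and for Htr5a in PDS5AB-AID_NIPBL-FKBP 18.1 to 37.1 CPM. Within each of these lines all treated libraries were still above all untreated ones. Among untreated libraries, replicate 2 was likewise the lowest for all 3 genes in both NIPBL-FKBP lines and for Epn3 and Htr5a in WAPL-AID. It was not the lowest untreated library for Gpld1 in WAPL-AID or for any of the 3 genes in PDS5AB-AID. How often such an order occurs over all genes was not counted.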
